A study of Mus musculus with 109 samples.

Results

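The genes described here are the kinesins and cytoplasmic dynein subunits measured in single cells of the P7 mouse cerebellum. A gene was taken when its symbol in the count table began with Kif and a digit, or with Dync. This gave 37 of the 15973 genes listed. By their known roles, 11 of the 37 were mitotic kinesins, 18 were transport motors, and 8 were other members (ciliary motors, depolymerases outside the mitotic list, less studied kinesins and 1 pseudogene). Their levels were compared between cells rich in Mki67, which encodes the proliferation antigen Ki67, and cells nearly without it.

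Kinesins are motor proteins that use ATP to step along microtubules, most of them toward the plus end, or to take microtubules apart. Cytoplasmic dynein carries cargo toward the minus end, and in a neuron these motors supply axons and dendrites in both directions. A separate set of kinesins builds the mitotic spindle, moves chromosomes and organizes the central spindle at cytokinesis. Granule cell progenitors (GCPs) divide in the external granule layer of the postnatal cerebellum, and the granule cells that they produce leave the cycle, grow axons and migrate inward, so the layer holds both dividing cells and young neurons.

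The cells came from the cerebella of P7 C57BL/6 mice, were enriched on a Percoll density gradient, and were captured individually on Fluidigm C1 chips for one Smart-seq library each. No genotype or treatment separates the samples. The sample titles place the 109 cells in 6 library groups of 18 or 19 cells, numbered here in the order of the samples. No label says which animals a library group came from, so a p-value over library groups measures only the spread between them, which may be technical. A cell had between 15071 and 8616017 counts in total, and the median was 3604792.

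Counts were scaled to CPM, the count of a gene divided by the total of the cell or sum and multiplied by 1000000. Cells with Mki67 at 100 CPM or more were called Mki67-high, and cells with less than 10 CPM were called Mki67-low. The 32 Mki67-high cells started at 132 CPM and the 75 Mki67-low cells ended at 9.27 CPM. The 2 cells in between had 21.3 and 66.4 CPM and entered no comparison. Each library group held 3 to 8 Mki67-high and 10 to 15 Mki67-low cells, whose raw counts were summed, giving 6 sums of each class with 9369166 to 66286450 counts. Mki67-high cells were somewhat richer in detected genes, with a median of 4968 against 4193, and their median total was 4157698 counts against 3580460. In a sum, fewer cells with a transcript and less transcript per cell cannot be told apart, so shares of cells are given as well.

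The labelled cell type was checked against marker genes. All 6 granule lineage genes (Pax6, Meis1, Zic1, Neurod1, Barhl1 and Atoh1) had counts in both classes, together at 2315 to 5757 CPM in the Mki67-high and 3551 to 7028 CPM in the Mki67-low sums. Progenitor genes (Pcna, Ccnd2, Sfrp1 and Top2a) summed to 4205 to 9903 CPM in the Mki67-high and 1028 to 3841 CPM in the Mki67-low sums. Genes of young granule cells (Dcx, Rbfox3, Sema6a and Tubb3) summed to 797 to 2930 and 4427 to 8798 CPM. Of other cell types, 8 of 8 astroglial genes reached 99.4 to 2113 CPM in the Mki67-high and 53.1 to 3073 CPM in the Mki67-low sums, and 6 of 6 oligodendrocyte lineage genes reached 60.7 to 2216 and 227 to 1363 CPM. The highest Mki67-high and Mki67-low sum was 90.2 and 0.634 CPM for 4 of 4 microglial genes, 9.88 and 25.8 CPM for 3 of 4 endothelial genes with Flt1 at 0 in the Mki67-low cells, 14.3 and 9.55 CPM for 2 of 3 Purkinje cell genes, and 25.3 and 768 CPM for 3 of 3 interneuron genes. The part of these cell types in the differences below was not tested.

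Some libraries stood apart. At least 5 of the 8 astroglial genes reached 50 CPM in 3 of 32 Mki67-high and 2 of 75 Mki67-low cells. Among those 3 Mki67-high cells were 2 with 13533 and 12684 detected genes, from library groups 3 and 6, while no other cell exceeded 6420. The log2(CPM + 1) values of these 2 cells correlated across genes with r = 0.86, the highest of all 5886 pairs of cells. The next highest, r = 0.82, joined both cells in between, of library group 2: the cell with 15071 counts shared 2595 of its 2771 detected genes with the other. The comparisons were therefore repeated without the 5 cells with astroglial genes, which include both gene-rich cells.

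Most promoter windows of the mitotic kinesins held short words known from cell cycle genes, and the sequences printed here show where. They come from RefSeq promoter windows on GRCm38.p6, from 250 bases before to 50 bases after a start listed for the gene. Not every listed start is the annotated start of the gene. Windows matched 29 of the 37 members, among them 10 of 11 mitotic kinesins and 13 of 18 transport motors. The letters TTTGAA and TTTAAA are the core of the cell cycle genes homology region, an element known from promoters of genes expressed late in the cell cycle, and CCAAT is the box bound by NF-Y. Both strands were searched, so TTCAAA and ATTGG are also marked, and none of these words overlapped another. The 100 bases before the start are shown for Kif11 (chr19:37376282-37376381, plus strand), Kif18b (chr11:102925125-102925224, minus strand) and Kif23 (chr9:61946800-61946899, minus strand) as mitotic kinesins with such words. Kif18a (chr2:109280638-109280737, plus strand) is shown as the mitotic kinesin without them, and Kif5c (chr2:49619186-49619285, plus strand) and Dync1h1 (chr12:110601295-110601394, plus strand) as transport motors for contrast. Capitals mark the words searched.
Kif11: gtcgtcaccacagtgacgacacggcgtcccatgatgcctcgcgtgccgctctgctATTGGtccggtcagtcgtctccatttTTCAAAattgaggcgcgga
Kif18b: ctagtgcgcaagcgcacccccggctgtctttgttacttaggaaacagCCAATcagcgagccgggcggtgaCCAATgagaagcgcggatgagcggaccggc
Kif23: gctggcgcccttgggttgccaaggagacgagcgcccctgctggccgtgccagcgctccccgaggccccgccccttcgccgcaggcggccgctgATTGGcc
Kif18a: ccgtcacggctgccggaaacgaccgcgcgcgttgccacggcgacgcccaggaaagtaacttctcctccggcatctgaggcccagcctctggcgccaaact
Kif5c: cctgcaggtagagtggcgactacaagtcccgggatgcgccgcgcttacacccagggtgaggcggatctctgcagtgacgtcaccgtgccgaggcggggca
Dync1h1: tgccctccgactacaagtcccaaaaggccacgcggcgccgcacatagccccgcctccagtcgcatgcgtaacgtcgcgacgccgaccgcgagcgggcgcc

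In Kif11 the word ATTGG began 45 bases and TTCAAA 19 bases before the start. The same TTCAAA stood 17 bases before the start of Kif22 and 19 bases before that of Kif15, and Kif22 also had ATTGG 54 bases before it. Kif18b carried CCAAT 53 and 30 bases before the start and TTTGAA 3 bases after it, and Kif23 carried ATTGG 7 bases before and TTTGAA 2 bases after it. Over the whole windows, TTTGAA in either orientation was found in 9 of 10 mitotic kinesin promoters (90.0%) and in 5878 of all 32851 promoters (17.9%). It was found in 1 of 16 transport motor promoters (6.25%), a window of Kif1a that lies inside the gene (chr1:93082431-93082730). The Kif1a window at the annotated start (chr1:93101825-93102124) held none of the words. CCAAT was found in 6 of 10, 37.4% and 4 of 16 (25%). TTTAAA was found in 2 of 10, 13.2% and 0 of 16, the 2 being the windows of Kif14 and Kif2c. CCAAT together with either of the other words was found in 6 of 10, 10.7% and 0 of 16. The windows of Kif14 (from chr1:136467598) and Kif4 (from chrX:100625815) lie inside genes annotated from 136466343 and 100625737. On the minus strand, that of Kif2c (chr4:117178723-117179022) lies inside a gene that reaches to 117182639. They are among the 9 with TTTGAA, and Kif14 and Kif4 are among the 6 with CCAAT. These windows need not hold the promoter at the annotated start. Several genes have more than 1 window and some of these windows overlap, so the promoters are not independent. A match describes the letters in the window and is not a site of binding.

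Across the 11 mitotic kinesins, the fitted log2 fold change between Mki67-high and Mki67-low sums was positive for 11 of 11, from 2.42 to 10.92. Its median was 4.0, while the median over all 9084 genes tested was -0.18. Of the 11, Kif2c, Kif14, Kif18b, Kif4 and Kif20a had median Mki67-low sums of only 0.0170 to 0.113 CPM. They passed the filter on low counts only with the help of their Mki67-high sums, which favored a positive sign. That filter asks for enough counts in 6 sums. Kif11, Kif15, Kif18a, Kif22 and Kif23, each with a lowest Mki67-low sum of 0.211 CPM or less, also needed Mki67-high sums to pass. Only Kif20b, with 1.56 CPM or more in every Mki67-low sum, did not. The count, range and median over the 11 are therefore descriptive. With edgeR's quasi-likelihood test on the sums and Benjamini-Hochberg adjustment, 0 of the 11 passed the adjusted p threshold of 0.01, and only 2 of 9084 genes did so (0.022%), Tacc3 (adjusted p = 0.00109) and Cdc20 (adjusted p = 0.00526), both known from mitosis and both higher. At 0.05 the number called by edgeR was 0 of 11, with 0.0661% of all genes. At an unadjusted p under 0.05, 6 of the 11 mitotic kinesins were higher, as were 2.94% of all genes (7.33% in either direction). The biological coefficient of variation between library groups was 172%. DESeq2 on the same sums called Kif11, Kif18a and Kif2c higher, 3 of the 10 mitotic kinesins with an adjusted p, when 2.47% of all genes were called higher (3.48% in either direction). Applied to the mean log2(CPM + 1) over cells, limma called Kif11, Kif22 and Kif23 higher, 3 of 11, when 0.826% of all genes were called higher (0.837% in either direction). The calls thus depended on the tool, and Kif11 was the gene called by both DESeq2 and limma. The median log2 fold change over all genes also differed, at 0.20 in DESeq2 and 0.43 in limma.

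Without the 5 cells with astroglial genes, DESeq2 again called Kif11 (adjusted p = 1.01e-06), Kif18a (adjusted p = 0.00234) and Kif2c (adjusted p = 1.44e-07), when 1.98% of all genes were called higher. There limma called 0 of 11, when 0.308% of all genes were called higher, with log2 fold changes of 4.33 for Kif11 (limma adjusted p = 0.020), 4.13 for Kif22 (0.0235) and 3.67 for Kif23 (0.0249). In edgeR, 8 of the 11 passed the filter without these cells, with log2 fold changes from 2.45 for Kif15 to 7.24 for Kif18b, and 0 were called. The number of library groups with the higher sum in the Mki67-high class was as before for 9 of the 11, and fell by 1 for Kif2c, to 5 of 6, and for Kif14, to 4 of 6. When each library group was left out in turn, DESeq2 called 2 to 4 of the mitotic kinesins, with Kif11 and Kif2c among them each time. In these settings 198 to 312 of 9163 to 11040 genes with an adjusted p were called higher (278 to 409 in either direction). Kif18a was not called without group 1, 3 or 5. In limma, 3 were called without group 1 or 2, when 56 and 48 of 9084 genes were called, all higher. Without group 6 limma called 1, with 23 of 9084 genes called. Without group 3, 4 or 5 it called 0, with 19, 18 and 18 genes called, again all higher.

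**Figure D1:**
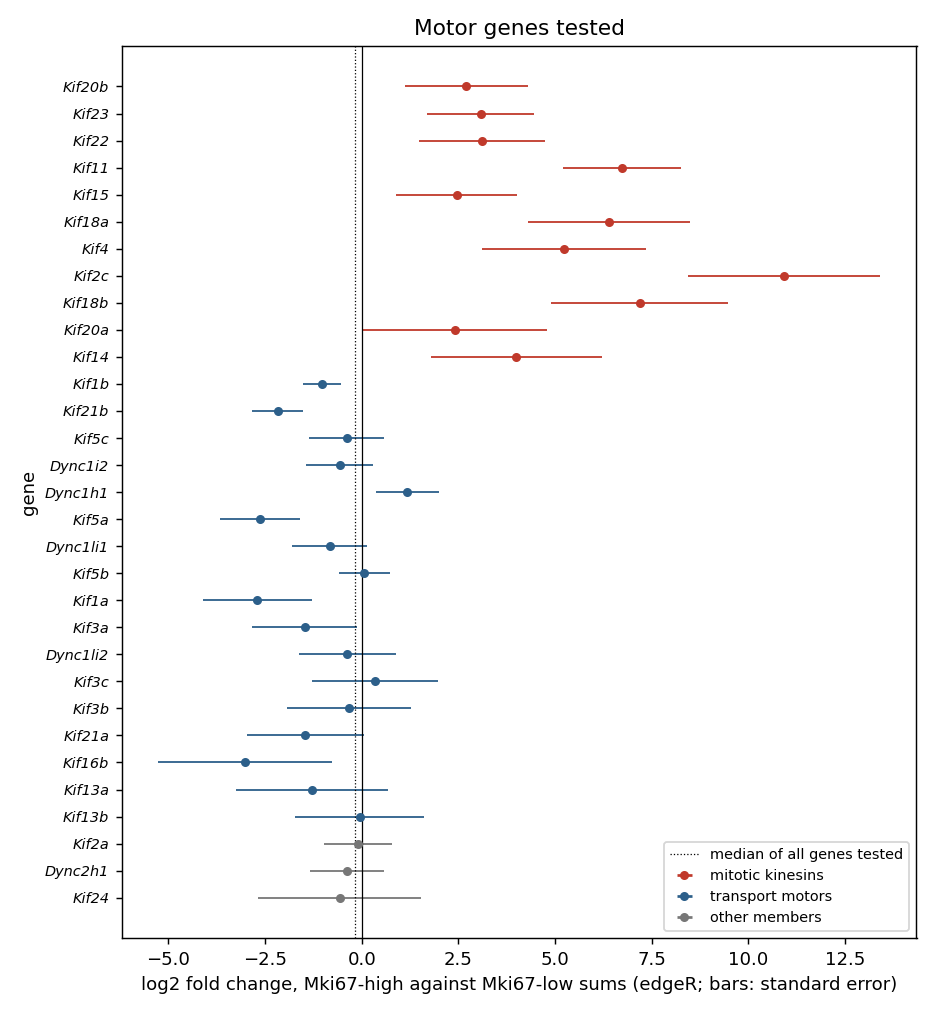
Log2 fold change of each motor gene tested between the 6 Mki67-high and the 6 Mki67-low sums on the x axis, with genes on the y axis; points are edgeR estimates, bars are 1 standard error, colors are the 3 roles and the dotted line is the median of all 9084 genes tested (-0.18). The 11 mitotic kinesins lie at 2.42 to 10.92, and the 17 transport motors lie at -3.03 to 1.18.

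Among motors of the spindle poles and spindle bipolarity, Kif11 (Eg5), which slides antiparallel microtubules apart, was the gene called by 2 tools. Kif11 had 2.24, 406 and 1068 CPM as the lowest, median and highest Mki67-high sum, against 0.0191, 3.22 and 14.3 CPM in the Mki67-low sums. Thus 5 of 6 Mki67-high sums lay above every Mki67-low sum, and the exception was library group 2, at 2.24 against 7.72 CPM. The log2 fold change of Kif11 was 6.72 (SE 1.53) with an edgeR adjusted p of 0.200, 7.05 with an adjusted p of 2.72e-06 in DESeq2, and 4.50 with an adjusted p of 0.00537 in limma. At least 5 counts of Kif11 were found in 20 of 32 Mki67-high cells (62.5%, Wilson 95% interval 45.3 to 77.1%) and 8 of 75 Mki67-low cells (10.7%, 5.50 to 19.7%). Intervals of this kind cover counting error only.

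Kif15, another plus-end motor that holds the spindle bipolar, overlapped more between the classes. Its Mki67-high sums had 3.44, 145 and 923 CPM as lowest, median and highest, and its Mki67-low sums 0.0753, 6.83 and 271 CPM. The groups overlapped, and Mki67-high was the higher class in 4 of 6 library groups. The highest Mki67-low sum, of library group 3, was far above the others, and 74.7% of all Kif15 counts in Mki67-low cells came from 1 cell. The fold change of Kif15 was 2.46 on the log2 scale (SE 1.56, edgeR adjusted p = 0.758), and 5 or more counts were found in 21 of 32 and 8 of 75 cells.

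The chromokinesins, which bind chromosome arms, were Kif22 (Kid) and Kif4. Kif22 had 73.2, 227 and 1828 CPM in the Mki67-high and 0, 2.87 and 301 CPM in the Mki67-low sums. These ranges overlapped through library groups 2 and 5 of the Mki67-low class, and 78.3% of the Kif22 counts of Mki67-low cells came from 1 cell. The log2 fold change of Kif22 was 3.11 (SE 1.64) with an edgeR adjusted p of 0.705, and 4.4 with an adjusted p of 0.00479 in limma. The pseudogene Kif22-ps, which is similar in sequence to Kif22 and can share its reads, had 5 and 2 counts in all.

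Kif4 had 0.150, 29.5 and 373 CPM in the Mki67-high and 0.0280, 0.0417 and 15.2 CPM in the Mki67-low sums. The Mki67-high sum of library group 1 lay at the bottom of its class, and the Mki67-low sum of the same group at the top, with 97.6% of the Mki67-low counts in a single cell. In the remaining 5 library groups each Mki67-high sum was above every Mki67-low sum. The log2 fold change was 5.24 (SE 2.12, edgeR adjusted p = 0.625). By cells, 5 or more counts of Kif4 were found in 18 of 32 (56.2%, 39.3 to 71.8%) and 2 of 75 (2.67%, 0.734 to 9.21%).

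Motors that act at the kinetochore and at plus ends were Kif2c, Kif18a and Kif18b. Kif2c (MCAK) takes microtubules apart rather than walking along them. Nearly all of its counts lay in the Mki67-high cells, 12939 in 32 cells against 10 in 75 cells. The Mki67-high sums of Kif2c had 0.300, 31.9 and 256 CPM and the Mki67-low sums 0, 0.0170 and 0.106 CPM, with 3 of the latter at 0. The 6 and 6 sums did not overlap, which was so, in that direction, for 0.627% of the genes tested. With so few counts in Mki67-low cells, Kif2c passed the filter on low counts only through its Mki67-high sums, so this follows from the filter and is a description. Kif2c reached 5 counts in 10 of 32 Mki67-high cells (31.2%, 18 to 48.6%) and in 0 of 75 Mki67-low cells (0%, 0 to 4.87%). A further 8 of 75 Mki67-low cells had 1 to 4 counts. Its log2 fold change was 10.92 (SE 2.49) with an edgeR adjusted p of 0.200, and 11.22 with an adjusted p of 3.13e-10 in DESeq2. Without the 5 cells with astroglial genes, 12661 and 10 counts of Kif2c remained, 5 of 6 library groups were higher in the Mki67-high class and the sums overlapped, the lowest Mki67-high sum being 0.

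Kif18a, which dampens chromosome movements at the metaphase plate, had 0, 78.2 and 563 CPM in the Mki67-high and 0, 0.503 and 10.1 CPM in the Mki67-low sums. The Mki67-high sum at 0 was that of library group 2, and the other 5 were above every Mki67-low sum. Its log2 fold change was 6.40 (SE 2.09) with an edgeR adjusted p of 0.473, and 6.71 with an adjusted p of 0.00325 in DESeq2. Kif18a lies over the oppositely oriented Mettl15, and where the strand setting of the counting is not given, reads of both genes cannot be told apart. The same holds for Kif4 with Pdzd11 and for Kif20a with Cdc23.

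Kif18b was singled out after its values were seen, as the other gene with sums that did not overlap. Its Mki67-high sums had 13.1, 22.8 and 460 CPM and its Mki67-low sums 0, 0.0340 and 3.97 CPM, a log2 fold change of 7.19 (SE 2.29, edgeR adjusted p = 0.468). Kif18b was higher in 6 of 6 library groups, as were 2.19% of all genes tested. With 3 of its Mki67-low sums at 0, Kif18b passed the filter on low counts only with the help of its Mki67-high sums. The lack of overlap and the 6 of 6 groups are therefore a description. Without the 5 cells with astroglial genes Kif18b stayed higher in 6 of 6 groups, and its sums overlapped, the lowest Mki67-high sum being 1.27 CPM.

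Kinesins of the central spindle and of cytokinesis were Kif23, Kif20b, Kif20a and Kif14. Kif23 (MKLP1) is the motor of the centralspindlin complex. It had 71.4, 573 and 1410.2 CPM in the Mki67-high and 0.211, 34.1 and 254 CPM in the Mki67-low sums, and it had a count in 27 of 32 and 48 of 75 cells. At 5 or more counts these numbers were 19 of 32 (59.4%, 42.3 to 74.5%) and 13 of 75 (17.3%, 10.4 to 27.4%). The exception among the library groups was group 6, with 184 against 254 CPM. Its log2 fold change was 3.08 (SE 1.38) with an edgeR adjusted p of 0.670, and 3.99 with an adjusted p of 0.00522 in limma.

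Kif20b (MPP1) had 0.225, 229 and 1637 CPM in the Mki67-high and 1.56, 8.49 and 244 CPM in the Mki67-low sums. The ranges overlapped widely. Library groups 1 and 2 were lower in the Mki67-high class, and 1 Mki67-low cell, at 5911 CPM, gave 63.6% of the counts of its class. The log2 fold change of Kif20b was 2.70 (SE 1.59, edgeR adjusted p = 0.731). The remaining Kif20a and Kif14 had Mki67-high sums of 0 to 171 and 0.300 to 137 CPM and Mki67-low sums of 0 to 70.5 and 0 to 12.3 CPM, of which single cells gave 98.5 and 99.4%. Their log2 fold changes were 2.42 (SE 2.38) and 4.0 (SE 2.21), with edgeR adjusted p of 0.855 and 0.715.

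**Figure D2:**
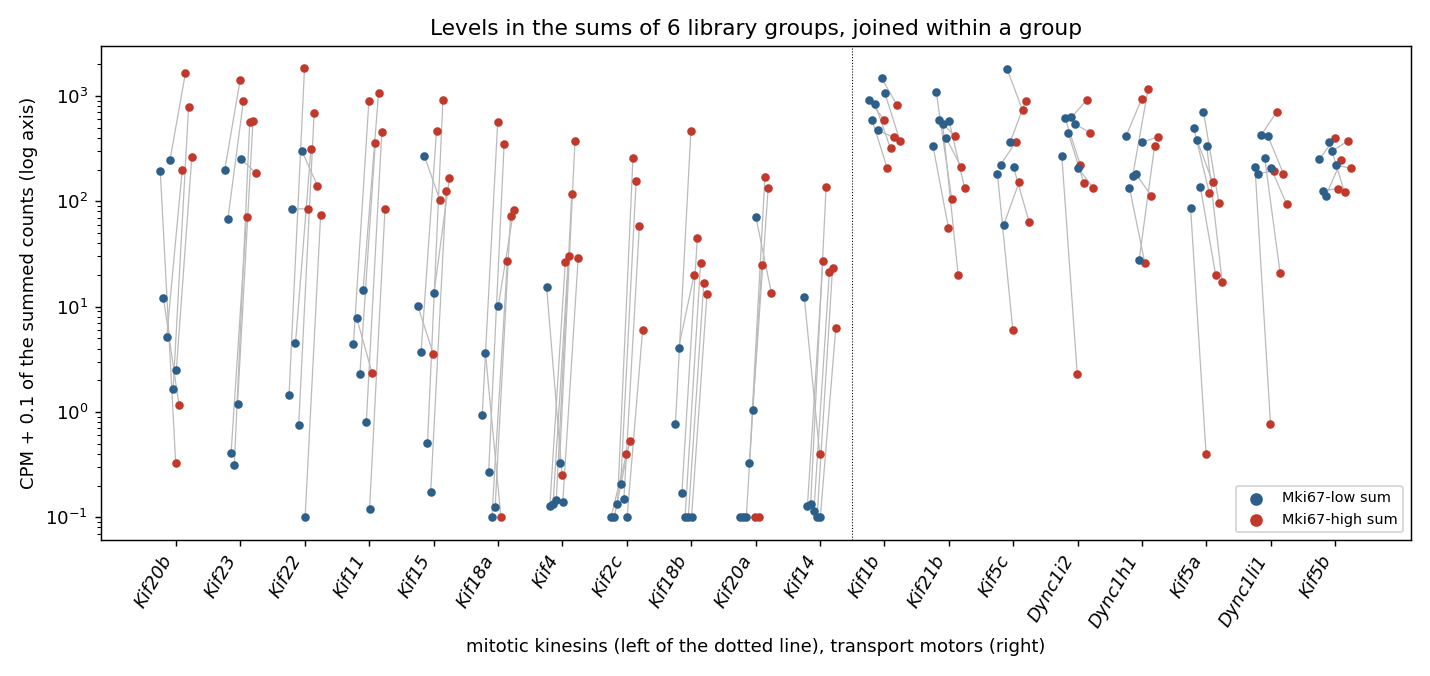
CPM + 0.1 of the summed counts on a logarithmic y axis for each of the 11 mitotic kinesins and the 8 transport motors named, with the 6 library groups as points for the Mki67-low (blue) and Mki67-high (red) sums and a line joining the sums of a library group. Red points lie above all blue points for Kif2c and Kif18b, and for Kif1b, Kif21b and Kif5a each red point lies below its own blue partner.

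Levels were compared between genes only per kilobase of exon. In the Mki67-high sums the mean CPM per kilobase of the mitotic kinesins ran from 107 ± 139 for Kif22 (SD, n = 6) through 78.0 ± 61.8 for Kif23, 69.1 ± 91.4 for Kif20b and 64.0 ± 57.5 for Kif11 down to 3.46 ± 4.90 for Kif14. Neighbors in this order differed by less than the larger of their SDs. In the Mki67-low sums, CPM per kilobase of mitotic kinesins was 13.3 ± 24.5 for Kif22 at the most and 0.00725 ± 0.00963 for Kif2c at the least. Transport motors in the Mki67-low sums reached 73.5 ± 28.6 CPM per kilobase for Dync1li1, followed by 66.3 ± 91.7 for Kif5c, 54.9 ± 44.6 for Kif3a, 54.5 ± 21.6 for Dync1i2 and 50.9 ± 20.5 for Kif1b.

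The mitotic kinesins were also counted within each cell. Counting genes with at least 5 counts, Mki67-high cells held 0 to 11 of the 11 mitotic kinesins with a median of 5, and Mki67-low cells held 0 to 6 with a median of 1. At least 3 were found in 23 of 32 Mki67-high and 9 of 75 Mki67-low cells, at least 6 in 14 and 1, and none in 1 and 36. With 1 count as the minimum the medians were 7 and 3, and with each cell thinned to 1110182 counts they were 6 and 2. Without the cells with astroglial genes the median at 5 counts stayed at 5 over 29 Mki67-high and at 1 over 73 Mki67-low cells. The 2 gene-rich cells held all 11 mitotic kinesins and all 18 transport motors at 5 or more counts, and without the astroglial cells the highest number of mitotic kinesins was 10. By contrast, Mki67-high cells held 1 to 18 transport motors with a median of 7.5 and Mki67-low cells 4 to 14 with a median of 8.

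Low counts were common among the mitotic kinesins of Mki67-low cells. Of their 825 values, 69.3% were 0, 21.6% were 1 to 4 counts and 9.09% were 5 or more, against 38.9, 14.2 and 46.9% of 352 values in Mki67-high cells. Transport motors showed nearly the same split in both classes, with 35.2, 19.6 and 45.1% of 576 values in Mki67-high and 34.1, 20.4 and 45.5% of 1350 values in Mki67-low cells. The minimum of counts therefore moved the shares of mitotic kinesins most in Mki67-low cells: Kif11 had 1 or more counts in 37 of 75 of them and 5 or more in 8.

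**Figure D3:**
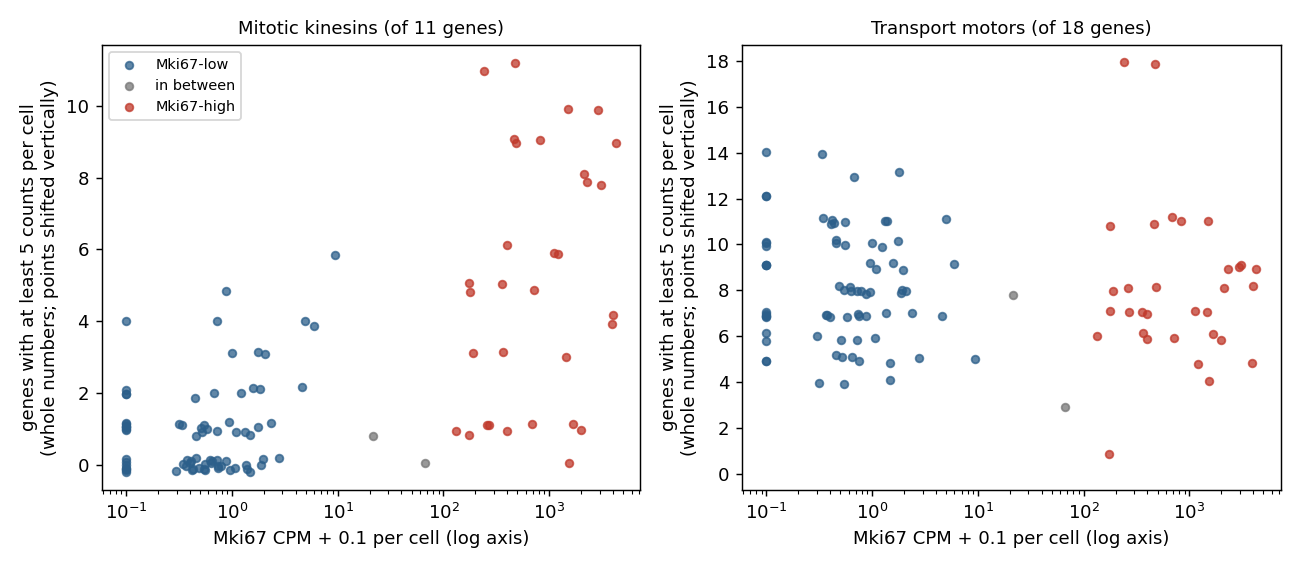
Number of mitotic kinesins (left, of 11) and transport motors (right, of 18) with at least 5 counts in each of the 109 cells on the y axis, shifted slightly to separate points, against Mki67 CPM + 0.1 on a logarithmic x axis, colored by class. Mitotic kinesins have medians of 1 in Mki67-low and 5 in Mki67-high cells, and transport motors have medians of 8 and 7.5.

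A few cells went against their class, and they are given here because of their values. The Mki67-low cell with the most mitotic kinesins, 6 at 5 or more counts, was the one with the highest Mki67 of its class, 9.27 CPM, and came from library group 5. Another, from library group 1, held 5 of them together with 5592 CPM of Top2a, the topoisomerase of dividing cells, and 1297 CPM of Pcna, the DNA polymerase clamp, although its Mki67 was 0.770 CPM. Conversely, a Mki67-high cell of library group 1 with 1539 CPM of Mki67 held no mitotic kinesin at 5 counts. Within the Mki67-high cells the mitotic kinesins varied together more than the transport motors did. The median Spearman correlation of CPM over the 32 cells was 0.34 for the 55 pairs of mitotic kinesins, from -0.08 to 0.75 for Kif2c with Kif14, against 0.09 for the 136 pairs of transport motors and 0.08 for the 187 mixed pairs. In the 75 Mki67-low cells these medians were 0.07, 0.02 and -0.01. All pairs share the same cells, with their depth and number of detected genes, so the values are only descriptive.

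**Figure D4:**
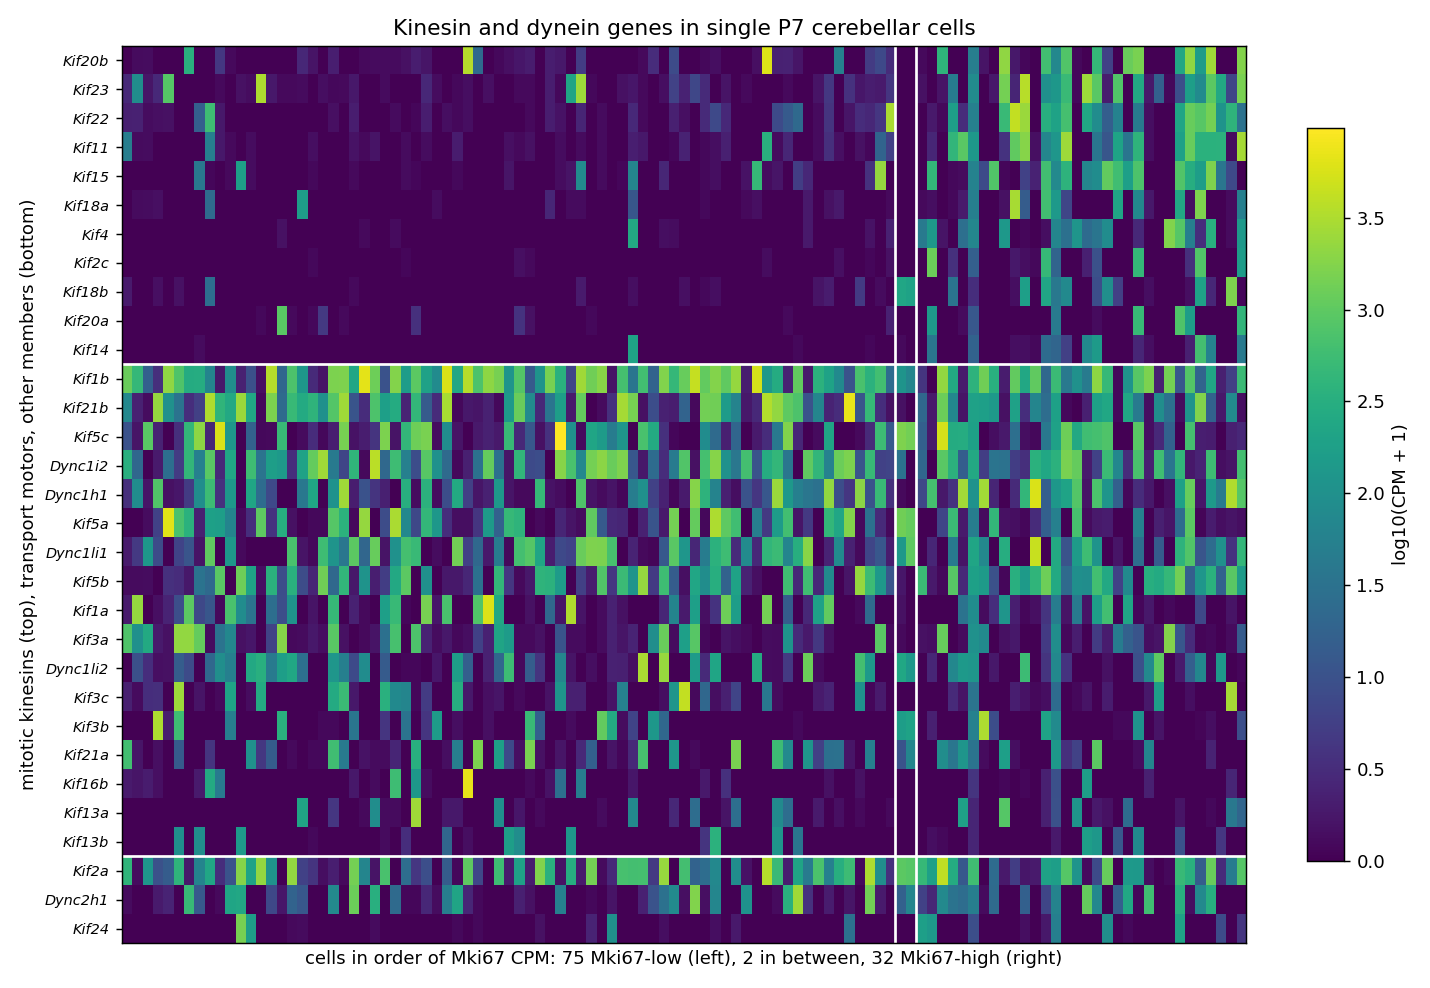
Log10(CPM + 1), as color, of the 31 motor genes tested (rows, grouped as mitotic kinesins, transport motors and other members) in the 109 cells (columns, ordered by Mki67 CPM within each class). Mitotic kinesins are mostly dark in the 75 Mki67-low cells and lit in varied combinations in the 32 Mki67-high cells, whereas the transport motors are lit across both classes.

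The transport motors were on balance not higher in Mki67-high cells. Of the 18 listed, 17 had counts enough for the test, and Kif1c, at most 3.37 CPM in any sum, did not. Kif17 and Dync1i1 were not analysed here. Of the 17, edgeR called 0, at both 0.01 and 0.05, and 2 had an unadjusted p under 0.05, both lower, when 4.39% of all genes were lower at that level. DESeq2 called 0 of 16 and limma 0 of 17 at 0.01, when 1.01 and 0.011% of all genes were called lower. None of the 17 had Mki67-high sums that all lay below the Mki67-low sums, as 0.451% of all genes had. The log2 fold changes ran from -3.03 to 1.18 with a median of -0.83, against -0.18 over all genes, and 14 of 17 were negative. Without the cells with astroglial genes, edgeR again called 0 of 17, with log2 fold changes from -3.06 for Kif16b to 1.45 for Dync1h1.

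Kinesin-1, the motor of fast axonal transport, is built on Kif5a, Kif5b or Kif5c as heavy chains, and 0 of these 3 genes passed the threshold. Kif5a, found mainly in neurons, had 0.300, 57.7 and 153 CPM in the Mki67-high and 85.9, 358 and 704 CPM in the Mki67-low sums. Kif5a was lower in the Mki67-high sum of 6 of 6 library groups, as were 3.19% of the genes tested, although the ranges of the classes overlapped. Its log2 fold change was -2.64 (SE 1.04) with an unadjusted p of 0.0215 and an edgeR adjusted p of 0.60. At 5 or more counts it was found in 12 of 32 (37.5%, 22.9 to 54.7%) and 46 of 75 cells (61.3%, 50 to 71.5%).

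Kif5b, the ubiquitous form, had 121, 225 and 399 CPM in the Mki67-high and 113, 236 and 368 CPM in the Mki67-low sums, with a log2 fold change of 0.07 (SE 0.66, edgeR adjusted p = 0.994). Its classes covered nearly the same range, while 5 or more counts of Kif5b were found in 28 of 32 (87.5%, 71.9 to 95%) and 51 of 75 cells (68.0%, 56.8 to 77.5%). Kif5c, another neuronal form, had 5.84, 261 and 904 CPM against 60.1, 217 and 1795 CPM, and single cells gave 51.9% of its counts in Mki67-high cells (library group 5) and 51.6% in Mki67-low cells (library group 4). The log2 fold change of Kif5c was -0.39 (SE 0.97, edgeR adjusted p = 0.952), and without library group 4 it was 0.48. Kif5b overlaps an oppositely oriented gene that is also counted, and Kif5c overlaps the counted pseudogene Gm13525 on its own strand. Reads in these overlaps may not be told apart.

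The kinesin-3 motor Kif1b, which carries mitochondria and synaptic vesicle precursors, was found in nearly every cell, with a count in 31 of 32 and 75 of 75. Kif1b had 206, 388 and 819 CPM in the Mki67-high and 470, 877 and 1485 CPM in the Mki67-low sums. It was lower in 6 of 6 library groups, with overlapping ranges, and its log2 fold change was -1.03 (SE 0.50, edgeR adjusted p = 0.677).

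Kif21b, a neuronal kinesin of the kinesin-4 family, had 20.0, 120 and 412 CPM in the Mki67-high and 333, 560 and 1089 CPM in the Mki67-low sums. It too was lower in 6 of 6 library groups, and 5 of its 6 Mki67-high sums were below every Mki67-low sum. Its log2 fold change was -2.18 (SE 0.66) with an unadjusted p of 0.00454 and an edgeR adjusted p of 0.448, and DESeq2 gave -1.99 with an adjusted p of 0.0302, past 0.05 but not 0.01. Kif21b had 5 or more counts in 21 of 32 and 55 of 75 cells. Without the cells with astroglial genes, Kif5a, Kif1b and Kif21b remained lower in 6 of 6 library groups.

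Of cytoplasmic dynein 1, the heavy chain, an intermediate chain and a light intermediate chain were among the genes named, and 0 of these 3 passed the threshold. Dync1h1, which holds the motor domain, had 25.6, 370 and 1171 CPM in the Mki67-high and 27.4, 178 and 418 CPM in the Mki67-low sums. Its log2 fold change of 1.18 (SE 0.82, edgeR adjusted p = 0.779) was the highest among the transport motors, and Mki67-high was the higher class in 4 of 6 library groups. The intermediate chain Dync1i2, which binds dynactin, had 2.17, 185 and 922 CPM against 206, 494 and 627 CPM, with a log2 fold change of -0.57 (SE 0.87, edgeR adjusted p = 0.913). The light intermediate chain Dync1li1, which links the motor to cargo adaptors, had 0.674, 139 and 710 CPM against 183, 235 and 430 CPM, with a log2 fold change of -0.83 (SE 0.97, edgeR adjusted p = 0.885). For all 3 subunits the classes overlapped, and the subunits were found in most cells of both, Dync1i2 at 5 or more counts in 26 of 32 and 64 of 75.

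The other 9 transport motors tested (Kif1a, Kif3a, Kif3b, Kif3c, Kif13a, Kif13b, Kif16b, Kif21a and Dync1li2) had log2 fold changes from -3.03 for Kif16b to 0.35 for Kif3c, each with an edgeR adjusted p of 0.705 or more. Single cells carried much of some totals. In Mki67-high cells 1 cell gave 92.6% of the Kif3c counts and 82.7% of the Kif3b counts, and in Mki67-low cells 1 cell gave 87.3% of the Kif13a and 79.0% of the Kif16b counts.

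Among the other members, 3 of 8 had counts enough for the test and 0 were called by edgeR. Kif2a, a microtubule depolymerase of neurons and of spindle poles, had 12.2, 226 and 794 CPM in the Mki67-high and 8.53, 367 and 617 CPM in the Mki67-low sums (log2 fold change -0.09, SE 0.88, edgeR adjusted p = 0.994). Kif2a overlaps the oppositely oriented Dimt1. Dync2h1, the heavy chain of the dynein of cilia, had 33.3, 85.8 and 395 CPM against 20.6, 124 and 467 CPM (log2 fold change -0.39, SE 0.95, edgeR adjusted p = 0.952). Kif24, a depolymerase of centrioles, had 0, 15.2 and 46.2 CPM against 0, 0.807 and 119 CPM (log2 fold change -0.57, SE 2.11, edgeR adjusted p = 0.974). The sign of all 3 depended on the setting. The 5 not tested were rare: Kif7, a ciliary regulator of hedgehog signaling that overlaps Ticrr, had 361 counts in Mki67-high and 51 in Mki67-low cells, and Kif9, Kif19a, Kif26a and Kif22-ps had 258 or fewer in either class.

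Partners of these motors were read from the same fit. Of 16 partners of mitotic motors (other spindle kinesins, Aurora kinases, the chromosomal passenger complex, central spindle and pole proteins), 13 were tested, edgeR called 0 at 0.01, and their median log2 fold change was 4.18 with 13 of 13 positive. These partners went through the same filter on low counts, which can favor a positive sign, so this median and count are descriptive. At 0.05 edgeR called Aurkb, the kinase of the chromosomal passenger complex, with a log2 fold change of 10.18 (SE 1.57, adjusted p = 0.0141). The next largest was Birc5 (survivin), of the same complex, at 5.68 (SE 1.67), and the smallest was Numa1, which anchors dynein at the spindle poles, at 0.31 (SE 1.14). At an unadjusted p under 0.05 in edgeR, 8 of 13 were higher (2.94% of all genes), and DESeq2 called 8 of 16 (2.47% of all genes) and limma 6 of 13 (0.826%), all higher. Without the cells with astroglial genes, DESeq2 called 7 (1.98% of all genes) and limma 2 of them (0.308%), all higher. Of 29 partners of transport motors (kinesin light chains, dynactin, dynein light chains and cargo adaptors), 28 were tested, 0 were called by edgeR, DESeq2 or limma at 0.01, and 1 had an unadjusted p under 0.05 in edgeR, Klc1, a kinesin-1 light chain, at -2.50 (SE 1.07, edgeR adjusted p = 0.652). Their median log2 fold change was -0.34, with 8 positive and 20 negative.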

How the data were processed

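The authors aligned the reads of each cell to mm10 with STAR 2.4.1d, counted reads per gene with HTSeq 0.6.1 and deposited raw counts without normalization. Only genes with a count in at least 3 cells are listed. The strand setting of the counting is not given in the sources used here. Smart-seq libraries carry no molecular identifiers, and all 109 cells were kept without a doublet caller.

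CPM were computed per cell and per sum. Sums of raw counts per library group and class, 6 against 6, were filtered with filterByExpr, scaled by TMM and compared with the quasi-likelihood test of edgeR 4.0.16 in R 4.3.3, without Mki67. Genes were called at a Benjamini-Hochberg adjusted p under 0.01 over all genes tested. DESeq2 1.42.0 on the sums of all listed genes, with its own filter on low means, and limma 3.58.1 on the mean log2(CPM + 1) over cells, on the genes that passed the filter of the sums, were alternatives. Further ones were a block for library groups, DESeq2 size factors, no filter, a threshold of 0.05, other limits for Mki67, cells left out, library groups left out, a minimum of 5 counts and thinning to 1110182 counts. Chosen after the values were seen were the threshold of 0.05 with DESeq2, limma and the block, DESeq2 and limma without the astroglial cells or a library group, and numbers of kinesins per cell without the astroglial cells. The scripts were tested on simulated data. Standard errors of edgeR were derived from the fold change and its F statistic.

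The genes named were the 8 mitotic kinesins, 8 transport motors and 3 other members with the highest mean CPM over all cells, any called member, and partners that were called or had 1 of the 3 largest or smallest changes. Members and lists were chosen with earlier results of these data known. Gene positions, lengths and overlaps are those of GENCODE vM21 on GRCm38.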

Additional observations from a re-analysis of the deposited data

Results flagged for a closer look

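For the 22 motor genes with values by library group, the 6 sums of each class were examined for a single sum far from the other 5, by Dixon's test with a critical value of 0.625. Chance alone flags about 5% of such groups only where values follow a normal distribution. These sums were skewed upward, as for Kif4 in the Mki67-high sums, with a median of 29.5 and a highest of 373 CPM. The 5% is therefore no measure for the number flagged here. Of 44 groups of 6 sums, 17 had a sum that stood apart, 6 of them Mki67-high and 11 Mki67-low, and each was the highest of its 6.

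Among the mitotic kinesins in Mki67-low sums, Kif22 reached 301 CPM in library group 5, with 84.7 CPM next, and Kif15 reached 271 CPM in group 3, with 13.2 CPM next. Kif18a reached 10.1 CPM in group 6, Kif4 15.2 CPM and Kif14 12.3 CPM in group 1, Kif18b 3.97 CPM in group 2, and Kif20a 70.5 CPM in group 6. In the Mki67-high sums, Kif22 reached 1828 CPM and Kif18b 460 CPM in group 1, Kif4 373 CPM in group 5 and Kif14 137 CPM in group 3. The cell with the most counts gave 71.4% of the Kif14, 57.6% of the Kif18b and 47.9% of the Kif4 counts of all Mki67-high cells.

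Among the transport motors, Kif21b reached 1089 CPM in the Mki67-low sum of group 2 and Kif5c 1795 CPM in that of group 4, where 367 CPM was next. Dync1li1 reached 710 CPM in the Mki67-high sum of group 3. Among the other members, Dync2h1 reached 395 CPM in the Mki67-high sum of group 2 and 467 CPM in the Mki67-low sum of group 3, and Kif24 reached 119 CPM in the Mki67-low sum of group 6, with 4.19 CPM next.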

How the results depend on the processing

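The number of genes called over the whole table depended on the tool. It was 2 with edgeR, 376 with DESeq2 and 76 with limma, and at 0.05 it was 6, 727 and 180. With edgeR it was 6 with DESeq2 size factors, 0 with Mki67-low cells at 0 counts (18 cells, none in library group 3), 1 without the cells of unusual depth or gene number and 1 without the astroglial cells, which gave 565 with DESeq2 (200 higher and 365 lower, against 267 and 109 with all cells) and 29 with limma. With library group as a replicate block edgeR called 0 genes, and 6 at 0.05, with 0 motor genes in both. Deviations of the sums of a library group correlated at 0.0201 to 0.0558 over 9084 genes, and 4 of 6 correlated best with their own number. Leaving out library groups 1 to 6 in turn gave 0 to 1 genes in edgeR, 409, 391, 348, 385, 278 and 347 in DESeq2 and 56, 48, 19, 18, 18 and 23 in limma. Mitotic kinesins called were 0 in edgeR, 3 in DESeq2 and 3 in limma, at 0.05 they were 4 in DESeq2 and 6 in limma, without the astroglial cells 3 in DESeq2, and without 1 library group 0 to 4 over the 3 tools. Transport motors called were 0 in every setting but DESeq2 at 0.05, with 1. The median number of mitotic kinesins per Mki67-low cell, 3 at 1 count, was 1 at 5 counts with all cells and without the astroglial cells. The cause of these differences was not tested.

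Of 34 log2 fold changes under 497 alternatives, 458 kept their sign and their side of the threshold, 12 passed the threshold in DESeq2, limma or with DESeq2 size factors, and 27 changed sign, in 9 genes, none of them a mitotic kinesin. For the mitotic kinesins, settings with the filter on low counts favored a positive sign, and genes failing it were not scored. Their kept signs are therefore a description. With Mki67-low cells at 0 counts, the log2 fold change was 0.67 for Dync1i2, 0.29 for Dync1li1, -0.63 for Kif5b, 0.12 for Kif2a, 1.11 for Dync2h1, -1.45 for Numa1 and -0.36 for Nde1. With limma it was 0.60 for Kif5c, 0.30 for Kif2a, 0.88 for Dync2h1 and 0.76 for Kif24. Over all genes the median was 0.43 with limma, 0.20 with DESeq2, 0.14 with Mki67-low cells at 0 counts and -0.47 with the block. Kif5b gave -0.02 with the block and -0.03 without a filter, Kif24 gave 2.36 with the block, Kif2a gave 0.10 with DESeq2, 0.13 with DESeq2 size factors and 0.10 with Mki67-high cells from 10 CPM, and Dync2h1 gave 0.00 with DESeq2 size factors, which moved the median of all genes from -0.18 to 0.09. Without 1 library group the values ran from -0.85 to 0.48 for Kif5c, -0.21 to 0.47 for Kif5b, -0.71 to 0.25 for Kif2a, -1.31 to 0.67 for Dync2h1, -0.94 to 2.88 for Kif24 and -0.05 to 1.14 for Numa1. Without the cells of unusual depth or with astroglial genes, 8 of 11 mitotic kinesins passed the filter, all but Kif2c, Kif14 and Kif20a. Of 44 shares of cells, 30 moved out of their interval under 5 counts or thinning. The depth limits shares near 0, since 1 to 4 counts in a cell made up 21.6% of the mitotic kinesin values of Mki67-low cells.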

Other observations

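Both cells between the classes came from library group 2. The cell with 4122808 counts had 21.3 CPM of Mki67, 2 mitotic kinesins with a count, summing to 227 CPM, and 13 transport motors, summing to 3664 CPM. The cell with 15071 counts had 66.4 CPM of Mki67, which was 1 count, with 1 mitotic kinesin at 199 CPM and 7 transport motors at 3981 CPM. Top2a stood at 1819 and 1460 CPM and Dcx at 1507 and 1194 CPM in these cells.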
